A study of Mus musculus with 2 samples.

Results

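The 8 genes compared here make urea or supply its arginine, ornithine and activator. Their signal was compared between the control array and the G0s2 siRNA array. They were Nags, Cps1, Otc, Slc25a15, Ass1, Asl, Arg1 and Slc7a2, chosen by name among the gene probes of the scanner tables. They had 10 probes and 19 spots per array, out of 39424 probes kept, and are 8 of 15419 measured genes. All 8 were well above background on both arrays.

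Mouse primary hepatocytes, which are liver parenchymal cells taken into culture, received 50 pmol of either control siRNA or G0s2 siRNA with a lipid reagent in 24-well plates. The medium held 10% serum, and RNA was collected 24 hours later. G0s2 encodes an inhibitor of the triglyceride lipase made from Pnpla2, and the series asked how its knockdown changes gene expression in these cells. Each group is 1 array labelled with Cy3, and both groups were transfected, so untransfected cells are no part of the comparison. Strain, sex, age and number of animals, and the siRNA sequences, are not given in the sources used here.

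The urea cycle turns ammonia and aspartate nitrogen into urea and is strongest in hepatocytes around the portal vein. Its first steps lie in mitochondria, where Nags makes the activator that Cps1 needs, Cps1 makes carbamoyl phosphate, and Otc joins that to ornithine to give citrulline. The carrier Slc25a15 exchanges ornithine and citrulline across the inner membrane. In the cytosol Ass1 and Asl make arginine, and Arg1 splits it into urea and ornithine. Slc7a2 encodes a cationic amino acid transporter of the plasma membrane that brings arginine, lysine and ornithine into the cell.

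The probes of Cps1 and Arg1 are shown because these genes were higher, that of Otc because it was printed at 10 spots, and those of Nags and Asl because these partners of the pathway had small differences. The Otc probe shown is the dimmer of 2, and the value of Otc used in counts and medians comes from the other. Each is 60 bases, in lower case with no part marked, 5′ to 3′ along the transcript as the scanner tables give it. Coordinates are on mm9, and exon and UTR annotation of that build was not used here.
Cps1: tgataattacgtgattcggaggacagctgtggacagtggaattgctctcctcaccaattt
Arg1: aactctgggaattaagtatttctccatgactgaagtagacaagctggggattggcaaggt
Otc: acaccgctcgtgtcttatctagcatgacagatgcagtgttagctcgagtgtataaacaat
Nags: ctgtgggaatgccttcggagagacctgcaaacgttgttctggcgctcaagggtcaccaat
Asl: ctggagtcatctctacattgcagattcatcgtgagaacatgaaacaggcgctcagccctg

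The Cps1 probe for NM_001080809 lies at chr1:67276029-67276088 on the plus strand, at position 4439 of the transcript. The Arg1 probe for NM_007482 lies at chr10:24636194-24636253 on the minus strand, at position 674. The Otc probe shown, for NM_008769, starts at position 454 and maps to chrX:9853843-9877490 on the plus strand. Its 60 bases thus span 23648 bases of genome, so it crosses a splice junction. The Asl probe for NM_133768 also crosses one, at chr5:130487964-130488549 on the minus strand and position 1120. The Nags probe for NM_145829 lies at chr11:102009515-102009574 on the plus strand, at position 1356, and the tables also list NM_178053 for it.

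The other probes are given by place only. A further Otc probe lies at chrX:9897267-9897326 on the plus strand, at position 1381. The Ass1 probes for NM_007494 lie at chr2:31376068-31376127 and chr2:31375998-31376057 on the plus strand, at positions 1508 and 1438. The Slc25a15 probe for NM_181325 lies at chr8:23487872-23487931 on the minus strand, at position 1545. The Slc7a2 probe for NM_007514 lies at chr8:42002869-42002928 on the plus strand, at position 3161. It is also listed for the Slc7a2 transcript NM_001044740, so those transcripts are not told apart. For the first Ass1 probe the tables also list NR_002687, a transcribed pseudogene named Gm5424, so its signal could include that transcript.

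Signal at the 75th percentile of probes was 418 with control siRNA and 728 with G0s2 siRNA, and 54.1% and 58.2% of probes were well above background. Levels below are therefore log2 processed signals after subtracting that percentile of the same array, and a difference is the G0s2 siRNA level minus the control level. With 1 array in each group there is no replicate check and no p-value, and a difference holds for these arrays, not for the treatments in general. The ± is the scanner's own signal error, and covers none of the variation from culture to culture or from extraction and labelling. G0s2 itself, the siRNA target, had a signal of 383 with control siRNA and 103 with G0s2 siRNA, a difference of -2.70 ± 0.21. The 6 hepatocyte markers Alb, Ttr, Apoa1, Tf, Fgb and Hnf4a were all well above background on both arrays.

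All 8 genes had a positive difference, and 3 of them, Cps1, Slc7a2 and Arg1, were higher by 2-fold or more on the G0s2 siRNA array. At that rule 4.81% of all measured genes were higher and 5.46% lower, and none of the 8 was lower. The median difference over the 8 genes was 0.75, against -0.03 over all genes. With the brighter probe of each gene, Cps1, Slc7a2 and Arg1 lay between 1.90 and 2.96 and the other 5 between 0.21 and 0.92. Other readings fell between these parts. The 10-spot Otc probe was at 1.27, and Slc7a2 was at 1.39 with the normexp background correction in place of the scanner's. The genes were chosen with earlier results of these data known, so the shares describe them and do not test them.

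Cps1, the entry enzyme of the cycle, had a processed signal of 455 with control siRNA and 6160.0 with G0s2 siRNA. Its level was 0.12 with control siRNA and 3.08 with G0s2 siRNA. The difference was 2.96 ± 0.20, which is 7.78-fold with a range of 6.75 to 8.97 over 1 scanner error. Only 4 of the 14120 genes measured on both arrays had a larger difference.

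Nags, whose product activates the Cps1 enzyme, had signals of 820.1 and 1982 on the control and G0s2 siRNA arrays. Its difference of 0.47 ± 0.20, or 1.39-fold, was below the 2-fold rule. Cps1 thus stood 2.49 above its activator on the scale of log2 differences. That gap was 2.26 to 2.49 over all settings tried.

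Otc, which makes citrulline, was read by a probe with a single spot and by a probe printed at 10 spots. The single spot, the brighter probe, gave signals of 216 with control siRNA and 709.8 with G0s2 siRNA, a difference of 0.92 ± 0.21 and 1.89-fold. The 10-spot probe gave a difference of 1.27 ± 0.21, or 2.41-fold, so Otc lay on either side of the 2-fold rule by probe.

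The repeated Otc spots show how far spots of the same labelled RNA scattered. On the control array 1 of the 10 spots was marked by the scanner program as an outlier and left out. The 9 others ranged from 91.0 to 104 with a median of 97.3, and the same spots on the G0s2 siRNA array from 375 to 449 with a median of 408. No control spot came near the G0s2 siRNA spots, and the marked spot, at 117 and 406, did not either. These signals are not centred, and the G0s2 siRNA array was the brighter, with a 75th percentile of 728 against 418. Over the 9 spots the difference ran from 1.14 to 1.41 with a mean of 1.27 and an SD of 0.09. Across 247 probes printed at 10 spots the SD of the difference had a median of 0.07, with 5th and 95th percentiles of 0.03 and 0.24. Those SDs used only spots well above background on both arrays. Spots share 1 RNA and 1 array, so this scatter is technical and says nothing of the spread between cultures.

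**Figure D1:**
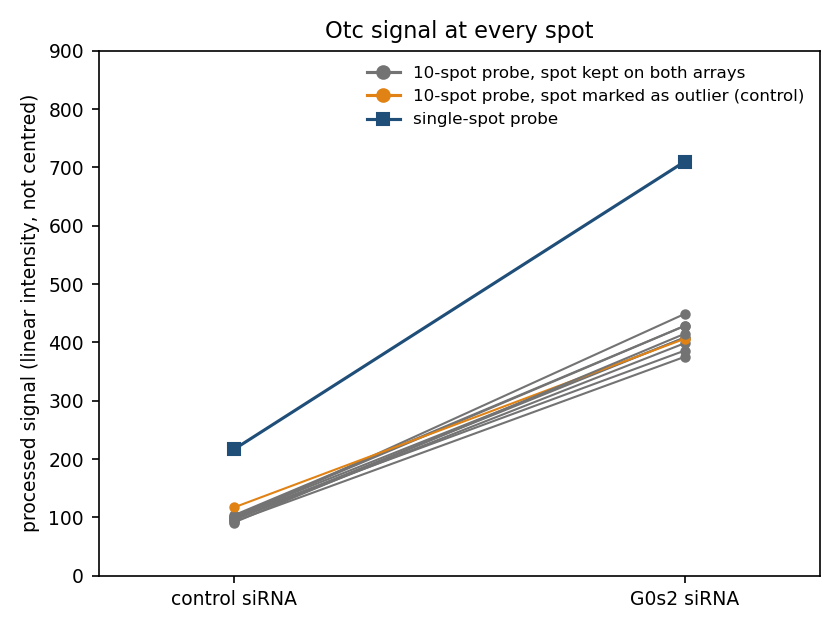
Processed signal of Otc at each spot (linear intensity, not centred, vertical axis from 0) on the control siRNA and the G0s2 siRNA array; lines join the same spot on both arrays. The 9 grey spots run from 91.0 to 104 on the control array and from 375 to 449 on the G0s2 siRNA array, the orange spot was marked as an outlier on the control array, and the blue squares are the single-spot probe at 216 and 709.8.

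Slc25a15, the ornithine and citrulline carrier, gave low signals of 50.2 with control siRNA and 132 with G0s2 siRNA. The difference was 0.59 ± 0.23, or 1.51-fold. Before background correction the spot read 127 on the control array, where local background around the spots of the 8 genes was 56.0 to 68.0. With the normexp background correction in place of the scanner's, the difference was 0.03, so its higher value rests on how background was removed.

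Ass1 and Asl, the enzymes that join citrulline with aspartate and release arginine, differed little. The first Ass1 probe gave signals of 18642 and 40146 on the control and G0s2 siRNA arrays, and the other probe 9811 and 20001. Their differences were 0.31 ± 0.20 and 0.23 ± 0.20. For Asl the signals were 3746 and 7522, a difference of 0.21 ± 0.20 or 1.15-fold. For all 3 probes the difference was smaller than 2 times its scanner error.

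Arg1, arginase, which makes the urea itself, had signals of 4128 with control siRNA and 26711 with G0s2 siRNA. Its level was 3.30 with control siRNA and 5.20 with G0s2 siRNA, a difference of 1.90 ± 0.20 and 3.72-fold. Among genes measured on both arrays 77 had a larger difference. The gap between Arg1 and Asl, the step before it, was 1.69 on the scale of log2 differences.

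Slc7a2, the arginine transporter, was near the floor of the measurement in control cells. Its signal was 31.6 with control siRNA and 366 with G0s2 siRNA, and the level was -3.73 and -0.99. The difference of 2.73 ± 0.25, or 6.65-fold, was exceeded by 9 of the 14120 genes. Before correction the spot read 102 on the control array, not far above that local background, and 421 on the G0s2 siRNA array. Under the normexp correction the difference was 1.39, still past the 2-fold rule but smaller.

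**Figure D2:**
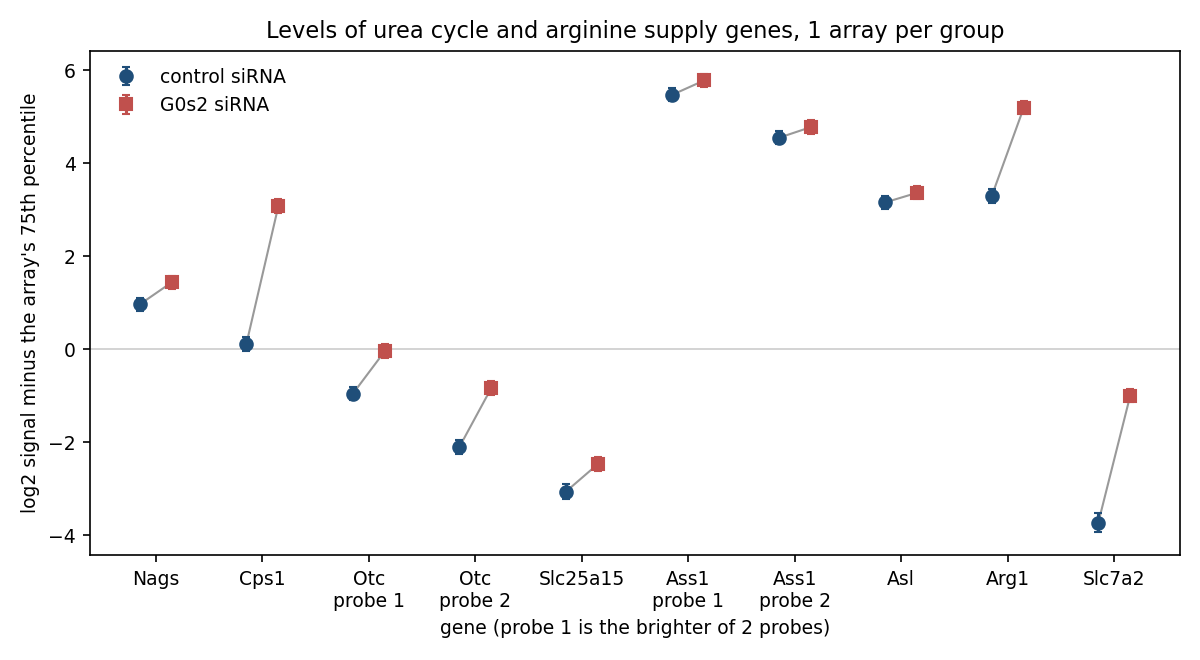
Level of each probe, as log2 processed signal minus the 75th percentile of the array (vertical axis), for the 8 genes in pathway order; circles are the control siRNA array, squares the G0s2 siRNA array, and bars the scanner's error. Cps1, Arg1 and Slc7a2 have the steepest lines, with levels moving from 0.12 to 3.08, from 3.30 to 5.20 and from -3.73 to -0.99, while the lines of Ass1 and Asl are nearly flat.

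In the order of differences by the brighter probe of each gene, neighbours were compared against their joint scanner error. Cps1 and Slc7a2 were 0.23 apart with a joint error of 0.33, so their order is not settled. The steps from Slc7a2 to Arg1, 0.84, and from Arg1 to Otc, 0.98, were each more than 2 joint errors. That error does not cover the choice of background correction. Under normexp Slc7a2, at 1.39, was below Arg1, at 2.08, so the order of Slc7a2 and Arg1 is not settled either. From Otc by its brighter probe down through Slc25a15, Nags and Ass1 to Asl, no step between neighbours reached 2 joint errors. The 10-spot Otc probe, at 1.27 ± 0.21, stood further above Slc25a15, at 0.59 ± 0.23, and was not part of this comparison.

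Gaps between genes of the same arrays do not move when an array is shifted by a constant, so they do not depend on the choice of centring. Cps1 stood 2.65 above Ass1, with 2.25 to 2.73 over all settings, and Arg1 stood 1.59 above Ass1, with 1.57 to 1.68. Cps1 stood 2.05 above Otc by the brighter Otc probe, with 1.69 to 2.12 over all settings. Slc7a2 stood 2.14 above Slc25a15, but 1.35 under normexp. These gaps show that the genes differed unequally, and not that any of them was constant.

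The direction of single genes does depend on centring. With the 8 spike-in probes as the reference, the median over all genes was 1.46 and all 8 genes passed the 2-fold rule, as did 82.9% of measured genes. That reference adds 1.52 to the difference of a gene measured on both arrays, so a negative difference smaller than that turns positive there, while the bounds of Gatm and Nr0b2 went to 0. The median of the 8 genes was then 2.27, which is 0.81 above that of all genes, against 0.78 above it with the 75th percentile. Genes that were higher made up 46.8% of all genes past the rule with the 75th percentile and 99.7% with spike-ins. The spike-in probes themselves differed by -0.97 to -0.02 in log2 signal. No source used here says whether equal amounts of them were added.

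**Figure D3:**
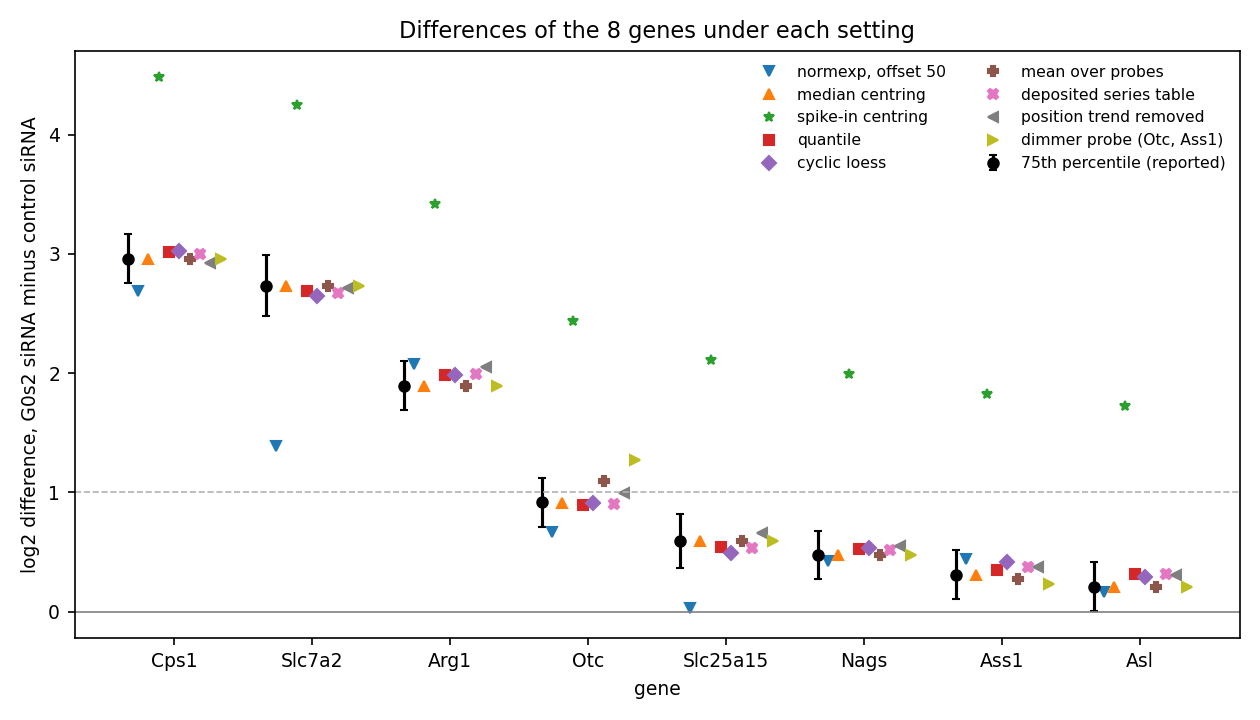
Log2 difference, G0s2 siRNA minus control siRNA (vertical axis), of the 8 genes under the reported setting (black, with the scanner's error) and 9 alternatives; the dashed line marks 2-fold. Spike-in centring lies above the other settings for each gene, and normexp lowers Slc7a2 to 1.39 and Slc25a15 to 0.03.

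Spots around Cps1, Arg1 and Slc7a2 on the slide did not share their differences. Within 5 rows and 5 columns, the median difference of other spots well above background was -0.14 around Cps1, -0.12 around Arg1 and -0.07 around Slc7a2, from 65, 72 and 66 spots. Around the 10 Otc spots of the repeated probe it ran from -0.19 to 0.10, and around the single Otc spot it was 0.04. It was -0.19 around Asl, -0.03 and 0.12 around the Ass1 probes, 0.10 around Nags and 0.01 around Slc25a15. Around the second Ass1 probe, Nags, the single Otc spot and Slc25a15 it thus had the sign of the probe's own difference. At the second Ass1 probe 0.12 stood beside an own difference of 0.23. Differences over all genes also moved with the position of the probe in its transcript, at Spearman rho = 0.146 across 14116 genes, a description over genes that share 2 arrays. The fitted trend was 0.04 at the Cps1 probe, 0.02 at Slc7a2, -0.15 at Arg1 and -0.17 at the repeated Otc probe.

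Other genes are likewise given relative to the 75th percentile, and with spike-in centring the medians of all 14 lists that follow were positive, from 0.51 to 2.29. Among enzymes that use arginine or ornithine outside the cycle, 23 of 25 listed genes were measured, none was at least 2-fold higher, 1 was lower as a bound, and the median was -0.14. The bound was that of Gatm, the first enzyme of creatine synthesis, at least 2.24-fold lower and close to background, and it fell short of the rule under normexp, at -0.93. Ddah2, which breaks down methylated arginine, differed by -0.90 ± 0.21. The spermidine and spermine synthase genes Srm and Sms differed by -0.60 and -0.83, and other probes of these genes by -0.55 for Srm and by -0.83 and -1.32 for Sms. Sat1, which acetylates polyamines, differed by -0.63. Odc1, which makes putrescine from ornithine, gave signals of 7056 and 10005 and a difference of -0.29, while its other probes gave 0.09 and -0.04. The positive end of the list was Oaz1, which encodes the antizyme that restrains that enzyme, at 0.49, Prodh, which starts proline breakdown, at 0.45 and Aldh18a1, of proline and ornithine synthesis, at 0.41. Arg2, the mitochondrial arginase, was not well above background on the control array, at signals of 13.0 and 20.4, and has no fold here.

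Enzymes that release ammonia or feed aspartate had a median of -0.16 over 17 measured genes of 18, with 1 higher and 1 lower. The higher gene was Sds, serine dehydratase, which frees ammonia from serine, with signals of 110 and 1159 and a difference of 2.60 ± 0.21. Gpt2 and Gpt, the alanine aminotransferase genes, differed by 0.87 and 0.67. The lower gene was Rhbg, an ammonia transporter gene, at -1.52 ± 0.21. Glul, which fixes ammonia as glutamine, differed by -0.33, and the glutaminase gene Gls2 by -0.01.

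Mitochondrial carriers and partners of the cycle had a median of -0.06 over 9 measured genes of 12, with none higher and 1 lower. Sirt5, which encodes a deacylase that acts on the Cps1 protein, gave signals of 773 and 567 and a difference of -1.25 ± 0.20, opposite in sign to that of Cps1. Slc25a13, the aspartate and glutamate carrier that supplies aspartate to Ass1, differed by -0.80 ± 0.20. The glutamate carrier Slc25a22 differed by -0.50. Car5a, which supplies bicarbonate to Cps1, differed by 0.31 at low signals of 44.4 and 95.7, and by -0.07 under normexp.

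Among plasma membrane amino acid transporters 16 of 20 genes were measured, 1 was higher, none was lower, and the median was -0.04. Slc38a4, of the system A carriers of neutral amino acids, had signals of 317 and 2138 and a difference of 1.96 ± 0.20. The related genes Slc38a2 and Slc38a1 differed by 0.94 and 0.87. Slc38a2 passed the rule at 1.01 to 1.09 under normexp, quantile normalization, cyclic loess and the deposited table, and Slc38a1 was 0.31 under normexp. Slc43a2, a carrier of large neutral amino acids, differed by -0.87. The relatives of Slc7a2 in the cationic family differed by -0.16 for Slc7a1 and by -0.45 for Slc7a3, so of these 3 genes Slc7a2 alone was past the rule.

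Regulators with known roles at urea cycle genes had a median of 0.25 over all 19 listed genes, with 13 positive, 1 higher and 1 lower. Over all measured genes the median was -0.03, and 4.81% were higher and 5.46% lower by the same rule. Hnf4a, a nuclear receptor that controls hepatocyte genes, had signals of 8354 and 29875 and a difference of 1.04 ± 0.20. The coactivator gene Ppargc1a differed by 0.76, Prox1 by 0.74 and the bile acid receptor gene Nr1h4 by 0.69, although Prox1 was 0.13 under normexp. Nr0b2, which encodes a repressor, was the lower gene, at least 2.04-fold and close to background. It fell short of the rule under normexp, at -0.84, and with the probe position trend removed, at -0.86. The receptor genes Gcgr and Nr3c1, for glucagon and glucocorticoids, differed by 0.68 and 0.46, but another Nr3c1 probe by -0.48. Cebpa and Cebpb differed by -0.19 and 0.17.

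The urea cycle lies in periportal hepatocytes, so markers of both zones were set beside it. Periportal genes outside the 8 had a median of 0.13 over 11 measured genes of 12, with Sds the only one higher and none lower. Besides Sds, Cdh1 differed by -0.71, G6pc by 0.42 and Hsd17b13 by 0.37. Pericentral genes had a median of -0.22 over 10 measured genes of 12, with none higher and 3 lower, where 5.46% of all measured genes were lower. Those were Cyp1a2 at -1.77 ± 0.21, Rhbg, and the glutamate transporter gene Slc1a2 at -1.37 ± 0.33, the last at signals of 35.9 and 24.2 and, short of the rule, -0.81 under normexp. Tbx3 differed by 0.41, Cyp2e1 by 0.23, Lect2 by 0.16 and Gulo by 0.01, and another Cyp2e1 probe by 0.37. Glul, Oat and Rgn differed by -0.33, -0.25 and -0.20.

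**Figure D4:**
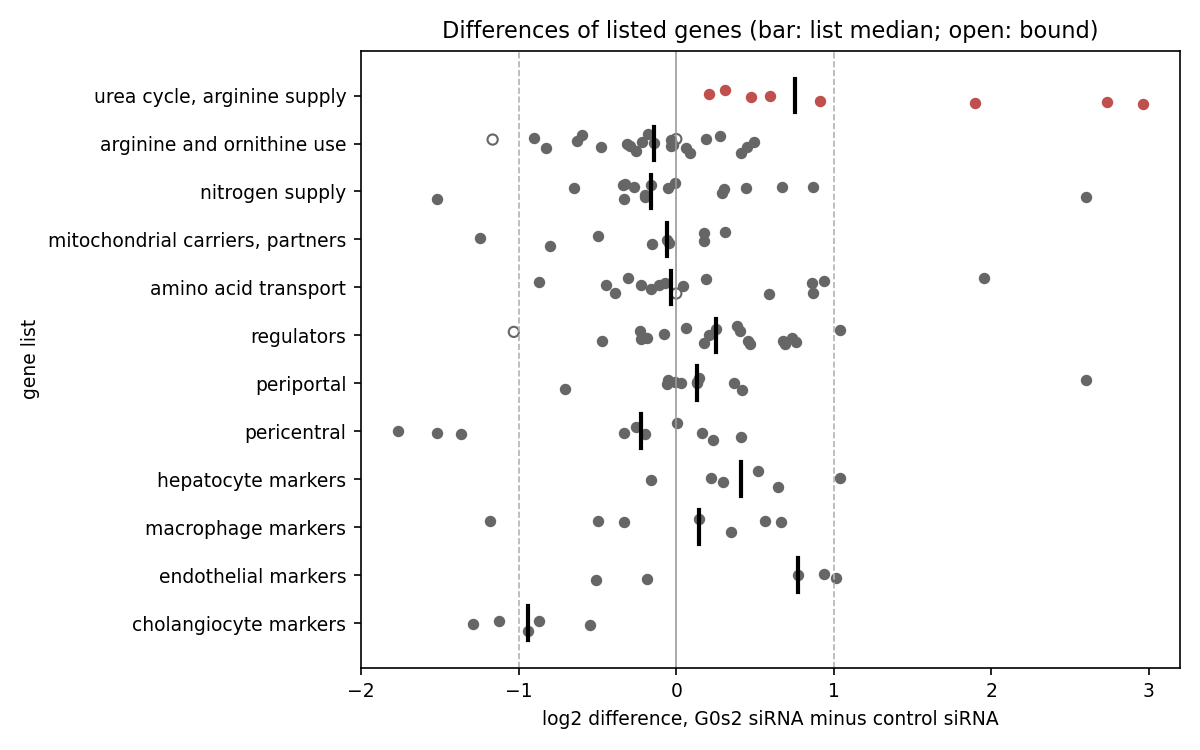
Log2 difference, G0s2 siRNA minus control siRNA (horizontal axis), of each measured gene in 12 lists (vertical axis; vertical jitter has no meaning); black bars are list medians, dashed lines mark 2-fold, and open circles are bounds. The urea cycle and arginine supply genes, in red, run from 0.21 to 2.96 with a median of 0.75, while the lists of arginine use, nitrogen supply, mitochondrial carriers and amino acid transport have medians from -0.16 to -0.04, all relative to the 75th percentile; with spike-in centring each of these medians was positive.

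Markers of the cell types present were read beside these values, since in bulk RNA fewer cells of a type and less RNA per cell cannot be told apart. Hepatocyte markers had a median of 0.41, against -0.03 over all genes, with 5 of 6 positive. They ran from -0.16 for Ttr through 0.30 for Alb, 0.52 for Fgb and 0.64 for Apoa1 to 1.04 for Hnf4a. Their summed signal differed by 0.29 after centring and that of the 8 genes by 0.78. Such sums are set mostly by the brightest genes, Alb and Tf among the markers and Ass1 and Arg1 among the 8. Macrophage markers, from cells that can also express Arg1 and Slc7a2, had a median of 0.14 over 7 measured genes of 8, but -0.11 under normexp. Their summed signal differed by -0.66, with Mpeg1, at signals of 3024 and 2317, weighing most in it. Among these markers Mpeg1 differed by -1.18, Csf1r by -0.50 and Marco by 0.56. Adgre1 differed by 0.67 at low signals of 17.1 and 47.0, and Cd163 was not well above background. The part of macrophages in the Arg1 and Slc7a2 values was not tested.

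Cholangiocyte markers were negative in all 5 measured genes of 6, with a median of -0.94 against -0.03 over all genes. Epcam was not well above background. Cldn7 was at -1.29, Krt19 at -1.13, Sox9 at -0.94, Krt7 at -0.87 and Spp1 at -0.55, and under normexp Krt19 was -0.90. With spike-in centring their median was 0.58. Krt19, at signals of 1174 and 934, and Spp1, at 1389 and 1655, were above the 75th percentile of probes on both arrays. Endothelial markers had a median of 0.77 over 5 of 6 but of -0.12 under normexp. Cdh5 was at 1.01, Flt1 at 0.94, Pecam1 at 0.77, Stab2 at -0.18 and Kdr at -0.51. A much dimmer second Kdr probe gave 1.27, and Cdh5 was 0.13 under normexp. Of the stellate cell markers 2 of 6 were measured, Acta2 at 0.29 and Col1a1 at -0.10, and Des, Lrat, Pdgfrb and Rgs5 were not well above background. Of the lymphocyte and neutrophil markers only Cd3e was measured, at -1.01, while Ptprc, S100a8 and S100a9 were not well above background. Of the red blood cell markers Alas2 differed by -0.82 and Hba-a1 was dim on the control array. The part of these cells in the urea cycle values was not tested.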

How the data were processed

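RNA from cells given either siRNA was read on 2 one-colour Agilent arrays, 1 per group, grouped by the siRNA named in the labels. The arrays shared a slide and a scan, per the file headers, so slide position and group cannot be told apart, and the number of arrays limits the precision. The deposited scanner files hold linear spot intensity values and spot flags from Agilent Feature Extraction 10.7.1.1, background-corrected by that program per the file headers. In the series table the authors deposited, used as an alternative, intensity values have a common distribution in both columns, by a method not given in the sources used here.

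Outlier and control spots were left out, which removed 5 probes, log2 spot values were averaged per probe, and each array's 75th percentile was subtracted. Each gene took its brightest probe among those that 1 or both arrays read well above background. Where a probe was dim on 1 array, its value there was raised to the lowest signal well above background if it was under that, and the fold is a lower limit. Names came from a RefSeq table of GRCm38.p6, which matched all but 8428 probes. The 8 genes were named with all 10 probes, and from each of 14 companion lists up to 4 genes with the largest difference, plus relatives and partners picked after their values were seen. The members and lists were chosen with earlier results of these data known. Alternatives changed the background correction (limma 3.58.1 normexp, offset 50), centring, normalization, the filter on dim probes, the probe, the source of values and the fold rule. Removal of a lowess trend with probe position (span 0.3) and use of the dimmer probe were chosen after seeing the data. The calculation was tested on simulated data, with Python 3.11.15, pandas 2.3.3, statsmodels 0.14.6 and R 4.3.3.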

Additional observations from a re-analysis of the deposited data

How the results depend on the processing

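The 8 genes kept a positive difference in the 60 values, under 9 alternatives, that the alternative could move, and 47 of these lay within the scanner error of the reported value. The filters on dim probes cannot move these genes, and the choice of probe moves only Otc and Ass1. With spike-in centring the median of the 8 genes was 2.27 and the count at least 2-fold higher was 8, and the 1.5-fold rule gave 5, against 0.75 and 3. The count of lower genes among the 8 was 0 under each alternative. Using the dimmer probe or the mean over probes added Otc to the higher genes, at 1.27 and 1.09. Over all genes, 741 were at least 2-fold higher and 842 lower, but 378 and 518 with normexp correction, 1523 and 1455 when dim probes were kept, 12785 and 42 with spike-in centring, 1918 and 2245 at 1.5-fold, and 176 and 236 at 3-fold. With dim probes kept the median of all genes was -0.15. Low signal limits Slc25a15 and Slc7a2 most. No paired analysis was possible because each group has 1 array, and slide as a block was not run because both arrays share a slide.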
